A study of Mus musculus with 12 samples.

Results

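The genes described here are the ligands BAFF (Tnfsf13b) and APRIL (Tnfsf13), their receptors BAFF-R (Tnfrsf13c), TACI (Tnfrsf13b) and BCMA (Tnfrsf17), and the plasma cell surface genes Sdc1 (CD138) and Slamf7 (CS1). These 7 genes were chosen by symbol, and all 7 were found among the 53715 genes of the count table and passed the filter on low counts. The data are RNA-seq counts of 12 spleen samples from mice, 4 in each of 3 groups. The first group was 10 weeks old and drank water with 6 g/L of the glycolysis inhibitor 2-deoxyglucose (2DG), a modified glucose, freely. The second group was 10 weeks old and untreated, and both 10-week groups were at the symptomatic age. The third group was 6 weeks old, untreated and without symptoms. Every group, the untreated ones included, had the strain background BXSB.Cg, which is lupus-prone, with the targeted alleles Cd8atm1Mak and Il15tm1Imx and the Yaa mutation, and is called Yaa DKO. Yaa places a copy of an X chromosome segment with Tlr7 on the Y chromosome. No group had the wild-type alleles, so no value below is relative to a healthy strain.

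BAFF and APRIL are ligands of the tumour necrosis factor family that keep B lineage cells alive. BAFF is made mainly by myeloid and stromal cells and binds all of BAFF-R, TACI and BCMA, whereas APRIL binds TACI and BCMA. BAFF-R carries the survival signal of mature B cells through the alternative NF-kappaB pathway, TACI restrains B cell numbers and supports antibody responses, and BCMA is found on plasma cells. Sdc1 is a heparan sulfate proteoglycan by which plasma cells are usually recognised and to which APRIL can bind. Slamf7 is a receptor of the SLAM family on plasma cells, natural killer cells and activated myeloid and lymphoid cells. Mice with too much BAFF develop a lupus-like disease.

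The promoters of Slamf7, Sdc1 and Tnfrsf17 are shown because these are the members with the largest differences between 2DG-treated and untreated spleens at 10 weeks. The sequences are from RefSeq (GRCm38.p6) and run 5′ to 3′ upstream of the RefSeq start, with bases that lie in an annotated exon left off. They cover chr1:171649008-171649249 on the minus strand for Slamf7, chr12:8771146-8771322 on the plus strand for Sdc1 and chr16:11313559-11313808 on the plus strand for Tnfrsf17. The Slamf7 window lies inside the gene's span in the GENCODE annotation (chr1:171632403-171653035), so another annotated start lies further upstream. For Tnfrsf17 the first bases after the RefSeq start were not found in a GENCODE transcript of the gene. Capitals mark matches to the motifs searched.
Slamf7: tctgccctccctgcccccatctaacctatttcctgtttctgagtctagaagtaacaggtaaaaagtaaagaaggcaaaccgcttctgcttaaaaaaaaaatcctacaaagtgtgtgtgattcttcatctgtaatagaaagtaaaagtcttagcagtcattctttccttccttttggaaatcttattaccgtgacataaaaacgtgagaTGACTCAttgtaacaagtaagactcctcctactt
Sdc1: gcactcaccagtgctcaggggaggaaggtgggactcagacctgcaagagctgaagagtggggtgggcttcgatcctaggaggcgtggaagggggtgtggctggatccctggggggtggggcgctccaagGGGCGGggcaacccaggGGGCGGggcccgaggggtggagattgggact
Tnfrsf17: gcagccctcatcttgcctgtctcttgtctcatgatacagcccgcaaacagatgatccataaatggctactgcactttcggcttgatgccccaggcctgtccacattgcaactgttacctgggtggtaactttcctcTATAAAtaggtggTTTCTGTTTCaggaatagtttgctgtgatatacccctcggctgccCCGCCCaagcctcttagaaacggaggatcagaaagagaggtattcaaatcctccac
The Slamf7 window held an AP-1 match (TGANTCA) from -42 to -36 relative to the start. The Sdc1 window held GC boxes (GGGCGG) from -121 to -116 and from -104 to -99, and another, from -49 to -44, lay among the exon bases left off. The Tnfrsf17 window held a TATA box match (TATAAA) from -114 to -109, a match to the IRF motif (GAAA and GAAA spaced by NN, here on the other strand) from -101 to -92, and a GC box on the other strand from -56 to -51. Both strands were searched over the 250 bases before each start. Among 32851 mouse promoter windows of that length, 6.75% held the AP-1 letters, 32.74% the GC box, 2.98% the IRF motif and 12.37% the TATA box. The letters searched for XBP1 (TGACGTGG, in 0.56% of windows), NF-kappaB (GGGA and TTCC spaced by NN, 1.21%) and the ETS-IRF composite (GGAA and GAAA spaced by NN, 2.3%) were in none of the members' windows. Of the other members, Tnfsf13b and Tnfsf13 also held an AP-1 match, Tnfsf13b an IRF match, and Tnfsf13 and Tnfrsf13c a GC box. These matches are descriptions of the sequence only.

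Total counts per library ran from 21581820 to 23835453 in 2DG-treated spleens, from 20692818 to 26079979 in untreated 10-week spleens and from 15596040 to 22480545 in untreated 6-week spleens. Transcripts of B cells and plasma cells were present throughout: none of the 9 plasma cell or 8 mature B cell marker genes was at 0 in any group. The untreated 10-week libraries were the most uneven, while the 2DG-treated libraries were the most alike: edgeR's biological coefficient of variation was 0.114 with 2DG, 0.241 untreated at 10 weeks and 0.127 untreated at 6 weeks. Among them, replicate 6 had the highest summed macrophage, neutrophil and stroma markers of its group and the lowest mature B cell markers. Replicate 8 resembled the 6-week libraries (median correlation across genes 0.991) more than its own group (0.980). Results that move without either library are given with and without it. The labels do not say that each sample is a separate mouse, so the p-values measure sample-to-sample spread, part of which may be technical.

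Of the 7 genes, Sdc1 and Slamf7 fell in 2DG-treated spleens relative to untreated spleens of the same age, and no member rose. Across all 18542 genes tested, 7.42% were called in either direction by edgeR's quasi-likelihood test with Benjamini-Hochberg adjustment at 0.05, with 2.16% called higher and 5.26% called lower. None of the 7 was called between untreated 10-week and 6-week spleens, where 0.00539% of all genes were called, or between 2DG-treated 10-week and untreated 6-week spleens, where 0.129% were. At an unadjusted p under 0.05, 3179 genes passed in the age comparison and 3132 in the comparison of 2DG-treated with 6-week spleens, and DESeq2 called 682 and 902 genes there. At that background a count of 0 of 7 is no result about the members.

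**Figure D1:**
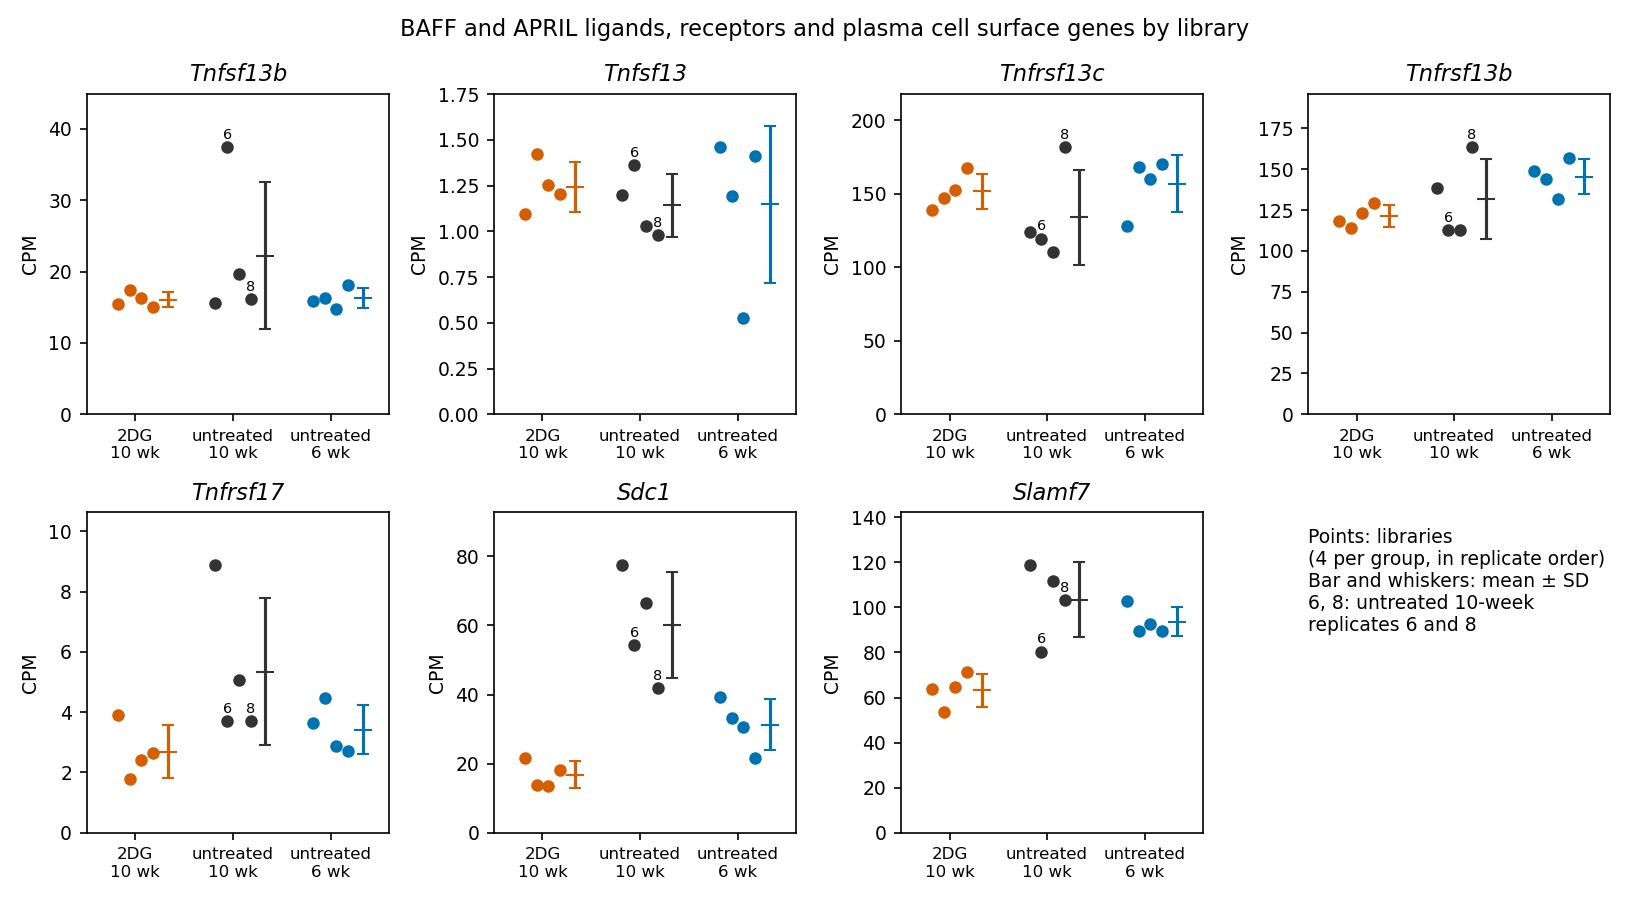
CPM (library-scaled counts, linear axes from 0) of each of the 7 genes in the 12 libraries; points are libraries, bars and whiskers the mean ± SD of 4. Sdc1 and Slamf7 lie lower in all 2DG-treated libraries than in any untreated 10-week library, and 1 untreated 10-week library, replicate 6, sets the high Tnfsf13b mean.

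Sdc1, which encodes the proteoglycan CD138, had the widest difference. Its level was 21.7, 13.8, 13.4 and 18.1 CPM (counts scaled to the library's total after TMM normalization) in the 4 2DG-treated spleens. It was 77.4, 54.3, 66.5 and 41.9 CPM in untreated 10-week spleens, and 39.3, 33.3, 30.6 and 21.6 CPM in untreated 6-week spleens. The 10-week groups did not overlap, and the untreated 10-week libraries were also all above the 6-week ones, whereas the 2DG-treated and 6-week ranges overlapped slightly. The means were 16.7 ± 3.90 CPM with 2DG, 60.0 ± 15.3 CPM untreated at 10 weeks and 31.2 ± 7.37 CPM untreated at 6 weeks (SD, n = 4 each). Sdc1 (chr12:8771323-8793715, plus strand, GRCm38) was thus 3.58-fold lower with 2DG (log2 fold change -1.84 with an SE of 0.23, edgeR adjusted p = 0.00176), with 4 of 4 treated libraries below the untreated mean. The call held in all 21 alternative settings, with adjusted p up to 0.0201. In RNA from whole spleen, fewer cells of a type and less RNA per cell cannot be told apart.

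With age, the log2 fold change of Sdc1 in untreated 10-week over 6-week spleens was 0.94 (SE 0.23), which did not pass the threshold (edgeR adjusted p = 0.106). It passed without untreated replicate 8, whose Sdc1 was the lowest of its group (log2 fold change 1.08, edgeR adjusted p = 0.0152). Over the 21 alternatives the adjusted p ranged from 0.00347 with DESeq2 to 1 when tested against a fold change of 1.5. In 2DG-treated 10-week over untreated 6-week spleens the log2 fold change was -0.90 (SE 0.23, edgeR adjusted p = 0.0993), which passed in 4 of 21 alternatives. The 2DG comparisons and the age comparison share their untreated groups, so the 3 sets of values are not independent of each other.

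Slamf7 showed a smaller drop. The 2DG-treated spleens had 63.6, 53.7, 64.5 and 71.2 CPM, the untreated 10-week spleens 119, 80.4, 112 and 103 CPM, and the untreated 6-week spleens 103, 89.3, 92.6 and 89.6 CPM. Every 2DG-treated library lay below every untreated library of either age, and the untreated ages overlapped. The means were 63.3 ± 7.25 CPM with 2DG, 103 ± 16.6 CPM untreated at 10 weeks and 93.6 ± 6.43 CPM untreated at 6 weeks (SD, n = 4 each). Slamf7 (chr1:171632403-171653035, minus strand) was 1.63-fold lower with 2DG than without at 10 weeks (log2 fold change -0.71 with an SE of 0.11, edgeR adjusted p = 0.00384), again in 4 of 4 libraries. This call was lost only in the test against a fold change of 1.5 (edgeR adjusted p = 1). An antisense gene, Gm37787, overlaps 423 of the exon bases of Slamf7 and had 37 counts over all 12 libraries. Strand is not marked and the splitting of reads between overlapping genes is not given, so reads shared by both genes cannot be counted.

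Against the untreated 6-week spleens, Slamf7 in 2DG-treated spleens had a log2 fold change of -0.57 (SE 0.11, edgeR adjusted p = 0.0746) with no overlap between the groups. It passed the threshold in 8 of 21 alternatives, among them without untreated 10-week replicate 6 (adjusted p = 0.0135), without untreated 10-week replicate 7 (0.0407) and without 2DG replicate 12 (0.0356). The log2 fold change with age in untreated spleens was 0.14 (SE 0.11, edgeR adjusted p = 0.553). In untreated 6-week spleens the mean of Sdc1 lay between those of the 10-week groups, and the mean of Slamf7 lay nearer to that of the untreated 10-week group.

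Tnfrsf17, which encodes BCMA, was measured from 43 to 170 counts per library. It had 3.91, 1.80, 2.42 and 2.63 CPM in 2DG-treated spleens, 8.87, 3.71, 5.07 and 3.71 CPM in untreated 10-week spleens, and 3.63, 4.46, 2.87 and 2.70 CPM in untreated 6-week spleens. One 2DG-treated library, replicate 9, reached into the untreated 10-week range, and untreated replicate 5 stood highest of all. The means were 2.69 ± 0.888 CPM with 2DG, 5.34 ± 2.44 CPM untreated at 10 weeks and 3.42 ± 0.808 CPM untreated at 6 weeks (SD, n = 4 each). The fitted log2 fold change of -0.98 (SE 0.31) for Tnfrsf17 (chr16:11313812-11320074, plus strand) missed the threshold (edgeR adjusted p = 0.0727). It passed without untreated replicate 6 (edgeR adjusted p = 0.0445), without untreated replicate 8 (0.0397), without both (0.00977) and with DESeq2 (0.0206), and the adjusted p ranged from 0.00977 to 0.931 over the 21 alternatives. Leaving out untreated replicate 5, the highest library, gave a smaller log2 fold change of -0.63 (edgeR adjusted p = 0.193). Leaving out 2DG replicate 10 gave -0.83 (edgeR adjusted p = 0.197). The log2 fold changes with age (0.63, SE 0.30) and of 2DG-treated over 6-week spleens (-0.35, SE 0.31) had edgeR adjusted p of 0.313 and 0.636. Without untreated replicate 5 the age value was 0.28 (edgeR adjusted p = 0.674), so 1 library gave much of it. Leaving out untreated replicate 6 or replicate 8 raised it to 0.77 in each case (edgeR adjusted p = 0.224 and 0.156). With both left out the age value was 1.02 and passed the threshold (edgeR adjusted p = 0.0466).

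The other receptors moved little. BAFF-R (Tnfrsf13c, chr15:82221743-82224369, minus strand) had 139, 147, 153 and 168 CPM in 2DG-treated spleens, 124, 119, 110 and 182 CPM in untreated 10-week spleens and 128, 168, 160 and 170 CPM in untreated 6-week spleens. Untreated replicate 8 was the highest library of all 12, while the other libraries of its group were the lowest. With all libraries the log2 fold change of Tnfrsf13c in 2DG-treated over untreated 10-week spleens was 0.18 (SE 0.14, edgeR adjusted p = 0.489), and that of untreated 10-week over 6-week spleens was -0.23 (SE 0.14, edgeR adjusted p = 0.45). Without replicate 8 the untreated 10-week mean was 118 ± 6.99 CPM (SD, n = 3), and both differences passed the threshold: 0.36 for 2DG (edgeR adjusted p = 0.0395) and -0.41 with age (edgeR adjusted p = 0.03). Over all alternatives the adjusted p ran from 0.0395 to 1 for 2DG and from 0.03 to 1 with age.

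TACI (Tnfrsf13b, chr11:61126755-61149372, plus strand) ranged from 114 to 129 CPM in 2DG-treated spleens, from 113 to 164 CPM in untreated 10-week spleens and from 132 to 157 CPM in untreated 6-week spleens. The means were 121 ± 6.61 CPM with 2DG, 132 ± 24.4 CPM untreated at 10 weeks and 145 ± 10.6 CPM untreated at 6 weeks (SD, n = 4 each). The 2DG-treated and 6-week libraries did not overlap, with a log2 fold change of -0.26 (SE 0.11) that did not pass across all genes (edgeR adjusted p = 0.242). It passed in 1 of 21 alternatives, the fit of those groups alone (edgeR adjusted p = 0.0329). The log2 fold changes of 2DG-treated over untreated 10-week spleens (-0.12, SE 0.11) and of untreated 10-week over 6-week spleens (-0.14, SE 0.11) had edgeR adjusted p of 0.537 and 0.54.

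BAFF itself (Tnfsf13b, chr8:10006467-10039072, plus strand) was at one level in 11 of the 12 libraries. It had 15.4, 17.4, 16.3 and 15.1 CPM in 2DG-treated spleens, 15.6, 37.5, 19.7 and 16.2 CPM in untreated 10-week spleens, and 15.9, 16.4, 14.8 and 18.1 CPM in untreated 6-week spleens. Only untreated replicate 6 lay outside the range from 14.8 to 19.7 CPM. The log2 fold change of Tnfsf13b was -0.47 (SE 0.23, edgeR adjusted p = 0.24) for 2DG-treated over untreated 10-week spleens, 0.45 (SE 0.23, edgeR adjusted p = 0.348) for untreated 10-week over 6-week spleens and -0.02 (SE 0.23, edgeR adjusted p = 0.979) for 2DG-treated over 6-week spleens. Without replicate 6 the first became -0.10 (edgeR adjusted p = 0.582) and the second 0.08 (edgeR adjusted p = 0.693), so 1 library gave most of both values. In that library the 6 macrophage markers summed to 2449 CPM, against 1127 to 1566 CPM in the rest of its group, the 6 neutrophil markers to 2307 CPM, against 340 to 1152 CPM, and the mature B cell markers to 2859 CPM, against 3636 to 5118 CPM. The monocyte markers of replicate 6 summed to 2121 CPM, inside the range of 1895 to 3225 CPM in the rest of its group. None of those markers was at 0 in any group, and their part in the Tnfsf13b value was not tested.

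**Figure D2:**
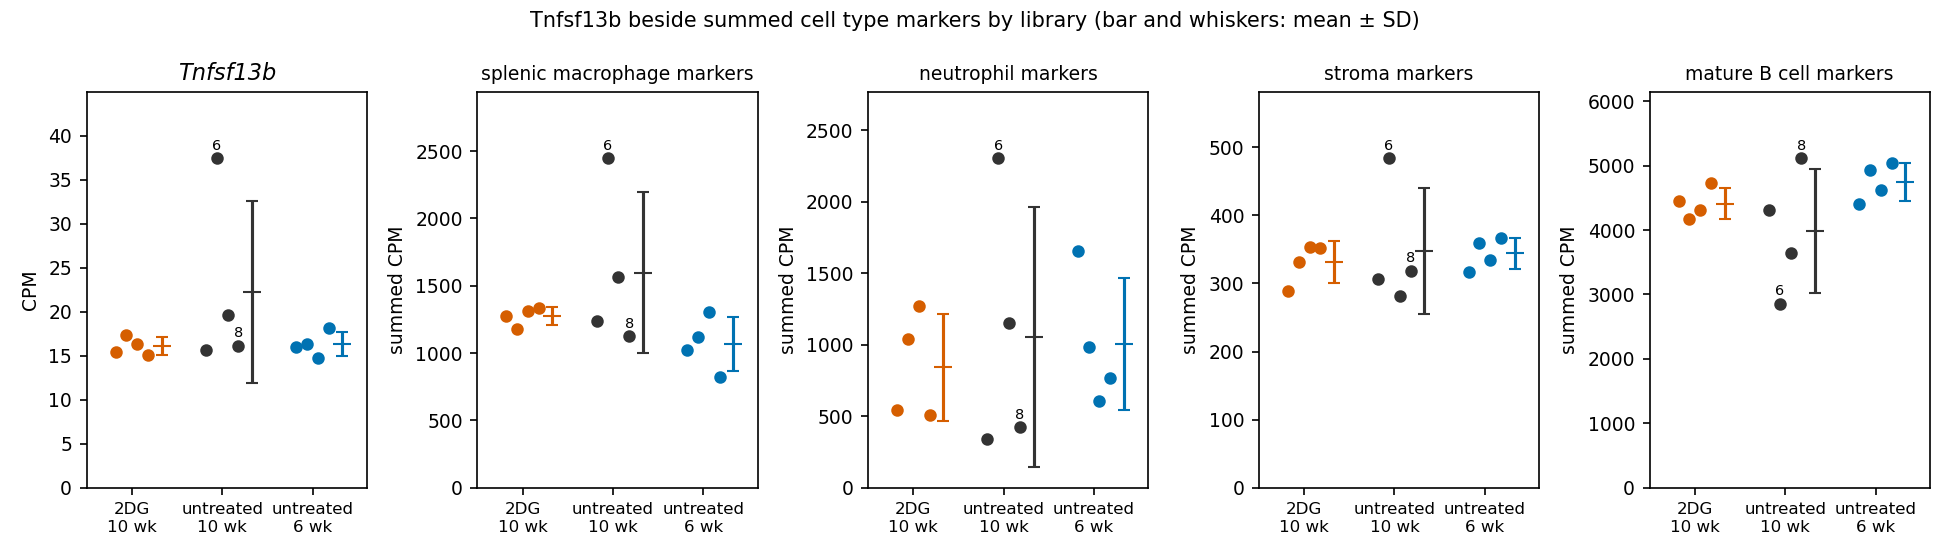
Tnfsf13b CPM and the summed CPM of macrophage, neutrophil, stroma and mature B cell marker genes by library (linear axes from 0); points are libraries, bars and whiskers the mean ± SD of 4. Untreated 10-week replicate 6, at 37.5 CPM of Tnfsf13b, is also the highest for macrophage, neutrophil and stroma markers and the lowest for mature B cell markers.

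APRIL (Tnfsf13, chr11:69682846-69685784, minus strand) was close to the limit of detection, with 11 to 34 counts per library. Its level was 1.24 ± 0.137 CPM in 2DG-treated spleens, 1.14 ± 0.173 CPM in untreated 10-week spleens and 1.15 ± 0.431 CPM in untreated 6-week spleens (SD, n = 4 each), and the groups overlapped in each comparison. The log2 fold changes were 0.13 (SE 0.26) for 2DG-treated over untreated 10-week spleens, -0.01 (SE 0.27) for untreated 10-week over 6-week spleens and 0.12 (SE 0.26) for 2DG-treated over 6-week spleens, with edgeR adjusted p of 0.82, 0.994 and 0.872. No difference was detectable at this depth, and the sign of the age value flips with the scaling (0.000269 with median-of-ratios size factors). Of its 1637 exon bases 983 lie in Tnfsfm13, a gene on the same strand with 190 counts over all libraries, and 221 lie in the antisense gene Tnfsf13os with 160 counts, so its counts are uncertain.

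**Figure D3:**
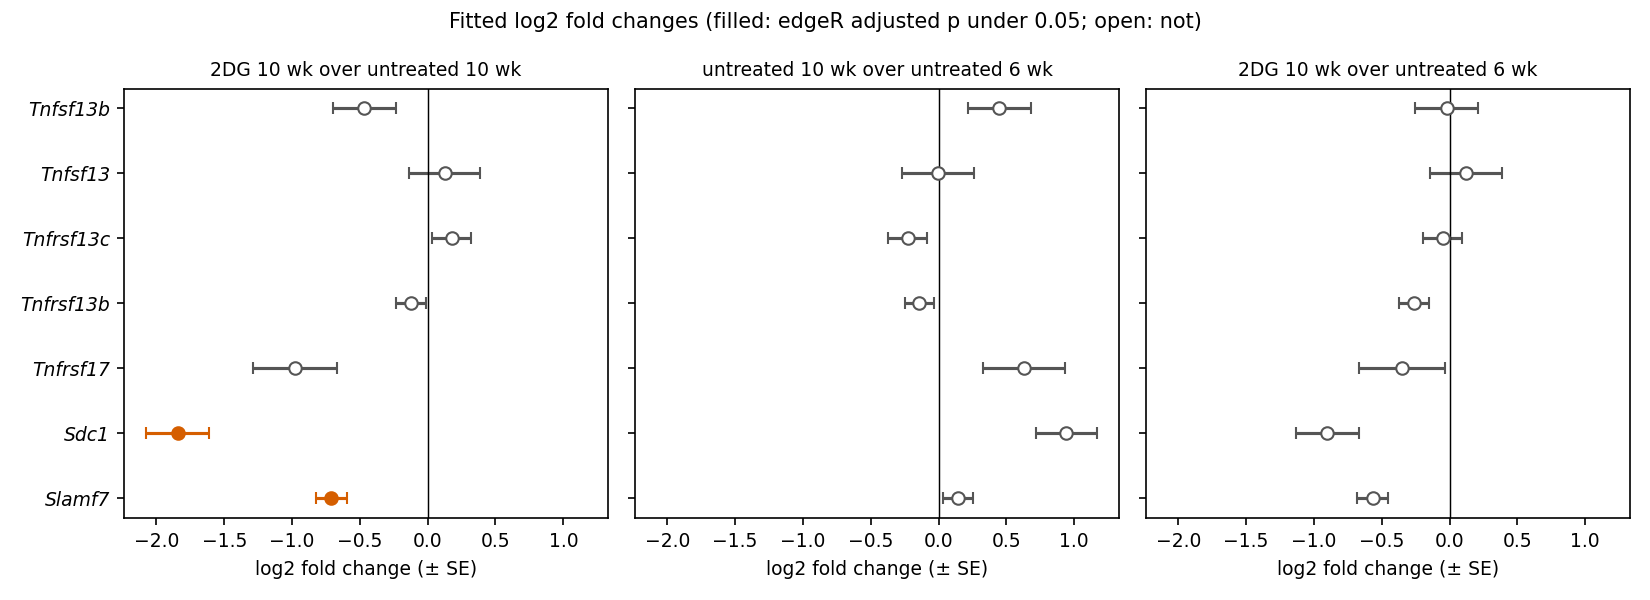
Fitted log2 fold changes with their SE (whiskers) for the 7 genes in the 3 comparisons (n = 4 libraries per group); filled points have an edgeR adjusted p under 0.05 over all 18542 genes. Sdc1 and Slamf7 at 10 weeks, at -1.84 and -0.71, are the filled points.

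Levels of different genes are compared per kilobase of exon. In CPM per kilobase the order was the same in each group: Tnfrsf13c, Tnfrsf13b, Slamf7, Sdc1, Tnfrsf17, Tnfsf13b and Tnfsf13. Mean levels ran from 74.0 CPM per kilobase of Tnfrsf13c to 0.760 of Tnfsf13 in 2DG-treated spleens, from 65.4 to 0.698 in untreated 10-week spleens and from 76.6 to 0.701 in untreated 6-week spleens. In 2DG-treated spleens the library ranges of Sdc1 (3.52 to 5.69 CPM per kilobase) and Tnfrsf17 (2.21 to 4.80) overlapped, as did those of Tnfrsf17 and Tnfsf13b. In untreated 10-week spleens the neighbours with overlapping ranges were Tnfrsf13c and Tnfrsf13b, Slamf7 (17.6 to 25.9) and Sdc1 (11.0 to 20.3), and Tnfrsf17 and Tnfsf13b. In untreated 6-week spleens no neighbours overlapped. The transcripts of BAFF-R and TACI thus stood well above both ligands in every group.

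The level of the plasma cell surface genes was set beside 9 secreting plasma cell genes that are not members, among them Xbp1 and Prdm1, transcription factors of plasma cells, and Mzb1, an endoplasmic reticulum protein of antibody-secreting cells. All 9 fell with 2DG relative to untreated 10-week spleens (median log2 fold change -1.47, against 0.01 over all genes tested). Xbp1 was at 216 ± 16.2 CPM with 2DG and 597 ± 115 CPM untreated (SD, n = 4 each), Prdm1 at 22.5 ± 5.02 CPM with 2DG and 62.3 ± 8.99 CPM untreated, and Mzb1 at 150 ± 24.6 CPM with 2DG and 542 ± 151 CPM untreated, each with an edgeR adjusted p of 0.00176. The summed markers ran from 1812 to 2791 CPM in 2DG-treated spleens, from 4050 to 7327 CPM in untreated 10-week spleens and from 2430 to 4471 CPM in untreated 6-week spleens, with none at 0. The part of plasma cell content in the values of Sdc1, Slamf7 and Tnfrsf17 was not tested. None of the 9 was called in the age comparison, where all 9 log2 fold changes were positive (median 0.73), or for 2DG-treated over 6-week spleens, where all 9 were negative (median -0.84).

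Relative to the mean log2 CPM of those 9 genes, the 3 plasma cell members did not all go the same way: Sdc1 was lower with 2DG, and Slamf7 and Tnfrsf17 were higher. Sdc1 minus the list was -1.91 ± 0.0946 in 2DG-treated spleens and -1.64 ± 0.0534 in untreated 10-week spleens (log2, SD, n = 4 each), a difference of -0.27 with no overlap (two-sided exact permutation p = 0.0286, the smallest this design allows, adjusted over 5 tests 0.0476). Slamf7 minus the list was 0.02 ± 0.23 in 2DG-treated spleens and -0.83 ± 0.292 in untreated 10-week spleens, a difference of 0.85 with no overlap (exact permutation p = 0.0286, adjusted 0.0476). Slamf7 therefore fell less than the mean of the secreting plasma cell genes and Sdc1 slightly more than that mean. Sdc1 did not fall beyond every listed gene: its log2 fold change was -1.84, and that of Mzb1 was -1.85. Tnfrsf17 minus the list was -4.53 ± 0.287 in 2DG-treated spleens and -5.16 ± 0.294 in untreated 10-week spleens, a difference of 0.63 with overlap (exact permutation p = 0.0571, adjusted 0.0714). In untreated 6-week spleens the means were -1.87 for Sdc1, -0.26 for Slamf7 and -5.03 for Tnfrsf17, and differences from that group were not tested. The 6-week mean of Sdc1 was thus nearer to that of the 2DG-treated group. With the list summed as CPM in place of its mean log2 CPM, the differences were -0.52 for Sdc1 and 0.61 for Slamf7 and no longer passed (exact permutation, adjusted p 0.0714 and 0.0952).

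BAFF-R and TACI were set beside 8 mature B cell genes, none of which was called in any comparison (median log2 fold change 0.13 for 2DG at 10 weeks). Tnfrsf13b minus this list was -2.09 ± 0.0421 in 2DG-treated spleens and -1.81 ± 0.148 in untreated 10-week spleens, a difference of -0.28 with no overlap (exact permutation p = 0.0286, adjusted 0.0476), which did not pass with the list summed as CPM (-0.28, adjusted 0.0714). Tnfrsf13c minus the list was -1.77 ± 0.0948 in 2DG-treated spleens and -1.79 ± 0.236 in untreated 10-week spleens, a difference of 0.03 (exact permutation p = 0.771) whose sign turned without untreated replicate 5 (-0.05) or untreated replicate 7 (-0.02). By mean log2 CPM, TACI was lower in 2DG-treated spleens relative to B cell genes, and no such difference was detectable for BAFF-R. This is a statement about the ratio to the list, since TACI itself was not called and was level between the 10-week groups without untreated replicate 8. In untreated 6-week spleens the mean of Tnfrsf13b minus the list was -1.93, and differences from that group were not tested. TACI was not tested relative to the plasma cell genes.

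**Figure D4:**
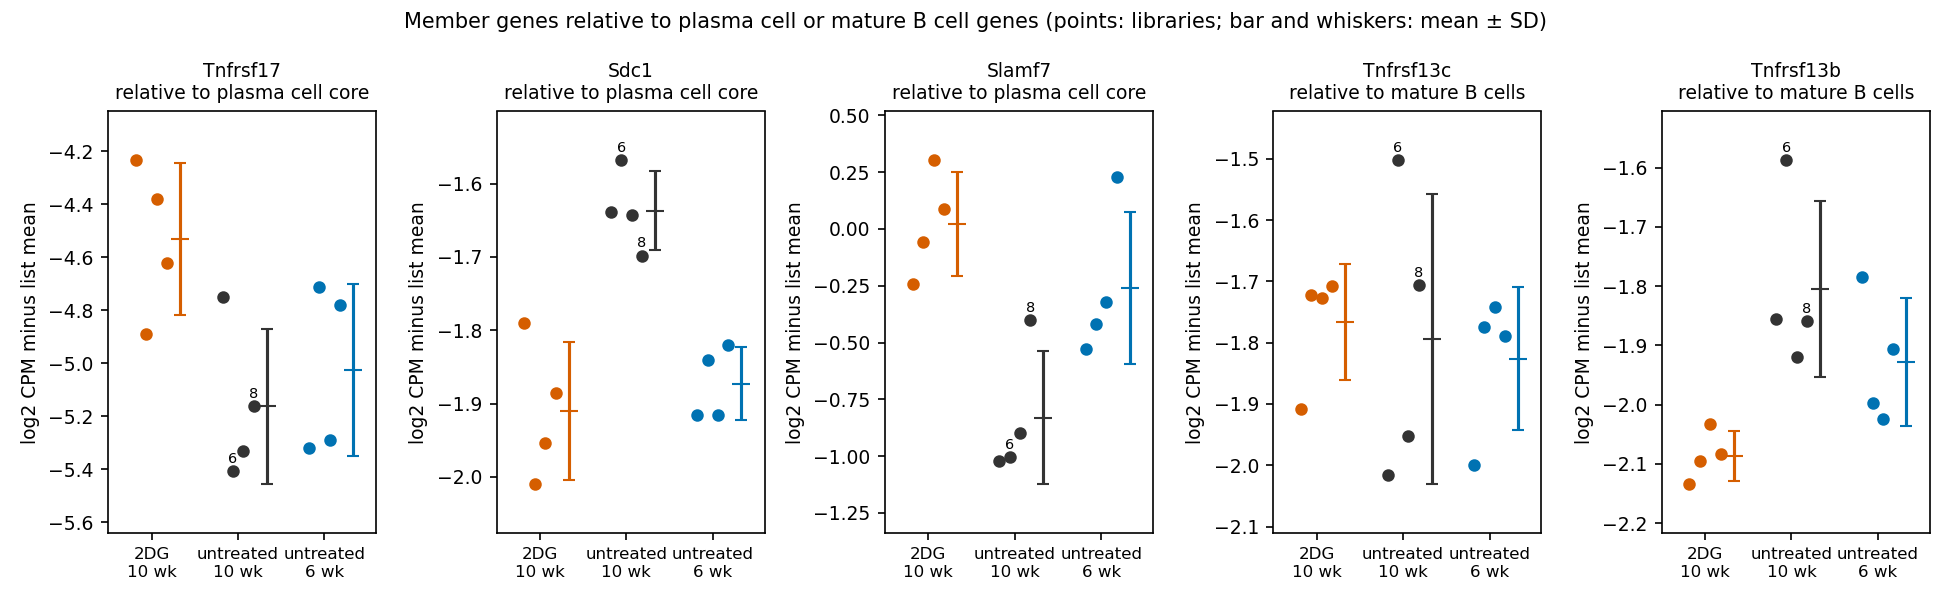
Log2 CPM of each gene minus the mean log2 CPM of its comparison list (9 secreting plasma cell genes or 8 mature B cell genes) by library; points are libraries, bars and whiskers the mean ± SD of 4. In 2DG-treated relative to untreated 10-week spleens, Sdc1 (-0.27) and Tnfrsf13b (-0.28) lie lower and Slamf7 (0.85) higher, without overlap.

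The genes whose pattern over the 12 libraries was closest to each member were found by the root mean square difference of centred log2 CPM. For Sdc1 they were Derl3 (0.103) and Mzb1 (0.133), both of the endoplasmic reticulum of secreting cells, and Amigo2 (0.146), where the median over 11163 genes was 0.83. For Slamf7 they were Manea (0.0957), Fam214a (0.110) and Gadd45b (0.122), none of them a plasma cell marker on the list. For Tnfrsf17 they were Clec2g (0.247), Slamf8 (0.254) and Lgals1 (0.254). For Tnfrsf13c they were Itpr3 (0.0757), Cd37 (0.0763) and Atg16l2 (0.0840), of which Cd37 is a tetraspanin of B cells, and for Tnfrsf13b they were Lca5 (0.0726), Rhobtb2 (0.0750) and Arpc5l (0.0768). For Tnfsf13b they were Alpk1 (0.0933), Apoe (0.129), a lipid carrier that macrophages make, and Igf1r (0.138), and for Tnfsf13 they were Csgalnact1 (0.233), Plekhg3 (0.236) and Cd96 (0.246).

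The same measure was taken against the mean of each gene list, a comparison chosen after the members' values were seen. Sdc1 was closest to the secreting plasma cell genes (0.135), and so, at a greater distance, was Tnfrsf17 (0.377). Slamf7 was closest to the rest of the SLAM family (0.261), and the secreting plasma cell genes came 13th of 18 lists (0.435). The measure depends on the size of the variation as well as its shape: the spread of Slamf7 about its own mean was 0.342, against 0.808 for Sdc1, and the next lists for Slamf7 were nearly as close as the first (0.273 and 0.287). Tnfrsf13c and Tnfrsf13b were both closest to the mature B cell genes (0.142 and 0.149), and Tnfsf13b was closest to the monocyte genes (0.269). The spread of Tnfsf13b about its own mean was 0.347, and replicate 6 was the only library outside 14.8 to 19.7 CPM, so little variation apart from that library enters its likenesses.

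Genes downstream of the receptors, and those of heparan sulfate synthesis, were compared between 2DG-treated and untreated 10-week spleens. Of all genes tested there, 5.26% were called lower and 2.16% higher. Of 15 genes that carry the BAFF receptor signal to NF-kappaB, 1 fell and none rose (median log2 fold change 0.01). The 1 that fell was Birc2, which encodes an inhibitor of the alternative pathway, at 146 ± 9.86 CPM with 2DG and 177 ± 12.4 CPM untreated (SD, n = 4 each, log2 fold change -0.28, edgeR adjusted p = 0.0229, not called in 5 of 21 alternatives). Of 9 B cell survival and BAFF-responsive genes only Pim2, a survival kinase, was called, at 25.7 ± 2.05 CPM with 2DG and 36.4 ± 5.70 CPM untreated (log2 fold change -0.50, edgeR adjusted p = 0.0123, not called in 2 of 21). Among the 9, 4 log2 fold changes were positive and 5 negative. Their summed CPM ran from 2442 to 2638 with 2DG and from 1641 to 2611 untreated. Untreated replicate 8 alone gave the value of 2611, and untreated replicates 5, 6 and 7 were at 1719, 1641 and 1791 CPM, below every 2DG-treated library. The difference in the sums was not tested. None of 14 genes for other syndecans and heparan sulfate synthesis was called, the smallest p being that of Sdc3 (log2 fold change -0.54, edgeR adjusted p = 0.0976). The median of the signalling genes downstream of BAFF-R was thus near that of all genes.

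The families to which the members belong were counted in the same comparison, in which 5.26% of all genes were called lower. Among 10 tested genes of the SLAM family and its adaptors, Slamf9, Slamf8 and Cd48 fell and none rose (median log2 fold change -0.21). Slamf9 was at 4.16 ± 0.662 CPM with 2DG and 19.3 ± 12.5 CPM untreated (log2 fold change -2.21, edgeR adjusted p = 0.0109), and Slamf8, a myeloid receptor, at 15.3 ± 1.89 CPM with 2DG and 27.7 ± 8.92 CPM untreated (-0.85, edgeR adjusted p = 0.0184). The call of Cd48 (-0.21, edgeR adjusted p = 0.04997) was lost in 14 of 21 alternatives and that of Slamf8 in 4. Among 19 other ligands and receptors of the tumour necrosis factor family, 5 fell and none rose (median -0.17): Tnfsf10, Tnfrsf4, Tnfsf4, Tnfrsf9 and Tnfsf8, of which the last pair were named after their values were seen. Tnfsf10, the death ligand TRAIL, was at 17.3 ± 1.78 CPM with 2DG and 35.0 ± 6.98 CPM untreated (log2 fold change -1.01, edgeR adjusted p = 0.00384). The receptor OX40 (Tnfrsf4) was at 8.84 ± 1.86 CPM with 2DG and 17.0 ± 4.34 CPM untreated (-0.94, edgeR adjusted p = 0.0113), and its ligand Tnfsf4 at 0.357 ± 0.160 CPM with 2DG and 1.43 ± 0.480 CPM untreated (edgeR adjusted p = 0.0144). With 2DG, Tnfsf4 lay below the 1.24 CPM of Tnfsf13, itself close to the limit of detection. The Tnfsf4 call was lost in 2 of 20 alternatives. Of 14 other plasma cell surface genes, Enpp1 (log2 fold change -0.61, edgeR adjusted p = 0.00604) and the adhesion receptor Cd44 (-0.40, edgeR adjusted p = 0.0209) fell (median -0.22).

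Cells that could carry the members or their ligands were followed by markers. Between the 10-week groups, 5.26% of all genes tested were called lower and 2.16% higher. For 2DG-treated over untreated 10-week spleens, 2 of 6 monocyte markers fell (Fcgr1 and Ly6c2, log2 fold changes -1.44 and -1.21, edgeR adjusted p of 0.0329 and 0.0419), and 1 of 6 macrophage markers fell (C1qa, -0.88, edgeR adjusted p = 0.0374). Those calls were lost in 11, 12 and 12 of 21 alternatives. Summed monocyte markers were 2219 to 2437 CPM with 2DG and 1895 to 3225 CPM untreated, and macrophage markers 1180 to 1333 CPM with 2DG and 1127 to 2449 CPM untreated. Of 6 dendritic cell markers, 4 had positive and 2 negative log2 fold changes. Clec9a, Cd209a and Zbtb46 rose (log2 fold changes 0.66, 2.15 and 0.45, edgeR adjusted p of 0.0124, 0.0249 and 0.0357). Their calls were lost in 2, 5 and 12 alternatives. The summed dendritic cell markers overlapped, at 237 to 275 CPM with 2DG and 233 to 275 CPM untreated. Of 3 tested epithelial markers, which matter because epithelia also carry Sdc1, Epcam fell (log2 fold change -1.13, edgeR adjusted p = 0.0117), and 1 had a positive log2 fold change. The epithelial markers summed to 5.82 to 10.4 CPM with 2DG and 9.86 to 18.7 CPM untreated. Most of those sums was Epcam itself, with means of 5.58 and 12.2 CPM. The mean log2 CPM of the tested epithelial markers overlapped, at 0.11 to 1.37 with 2DG and 0.37 to 1.22 untreated. No natural killer, T cell, neutrophil, stroma, erythroid or pancreas marker was called, of 3, 5, 6, 6, 3 and 1 tested. The erythroid markers summed to 2146 to 4704 CPM with 2DG and 629 to 3289 CPM untreated. No marker was at 0 in a whole group, and the part of these cells in the members' values was not tested.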

How the data were processed

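Per the labels' protocols, spleen RNA was selected for poly(A) and made into libraries with the TruSeq v2 chemistry, in which strand is not marked. The authors deposited 1 table of raw counts per gene for the 12 libraries, in whole numbers. The submitters' processing notes name Bowtie2 2.2.0, RSEM 1.2.12 and GRCm38 but not their roles. The splitting of reads between overlapping genes is not given in those notes or in the labels. Symbols and coordinates came from GENCODE M21 (53620 of 53715 identifiers matched; 95 did not, with at most 0.0158% of the counts in any library).

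All 18542 genes that passed filterByExpr were fitted over the 12 libraries with edgeR 4.0.16 in R 4.3.3 (TMM, robust glmQLFit and glmQLFTest, Benjamini-Hochberg, threshold 0.05), a procedure tested on simulated data. SE was taken as the log2 fold change over the square root of F, without its sign. CPM are counts scaled after TMM, and log2 CPM used a prior count of 2. Members were set against gene lists by two-sided exact permutation tests in SciPy 1.17.1 (4 against 4, smallest p 0.0286). Alternatives were DESeq2 1.42.0, limma 3.58.1 (voom), other scalings, filters and prior counts, the compared groups alone, a fold change of 1.5, and libraries left out singly or replicates 6 and 8 together. Named genes are the members, the 3 genes most like each (average log2 CPM of at least 2), and per list up to 3 called genes with the smallest adjusted p, or else the gene with the smallest p. The members and lists were chosen with earlier results of these data known. The result of 1 gene list is not reported here. No replicate number occurs in more than 1 group, so there is no pairing. Pairs within a group differed beyond sampling noise (chi-square per gene 10.5 to 85.2 over 18 pairs). Promoters were found in the RefSeq table (GRCm38.p6) for 7 of 7 members.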

Additional observations from a re-analysis of the deposited data

Results flagged for a closer look

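In 2DG-treated spleens, 1 library, replicate 9, stood apart in Tnfrsf13c relative to the mature B cell genes, at -1.91 on the log2 scale, where the other libraries of its group lay between -1.73 and -1.71. Its gap to the nearest library was 0.901 of the group's range, above the critical value for 4 libraries. Of 36 groups of values examined this was the 1 flagged, and chance alone gives about 1.8. The difference between 2DG-treated and untreated 10-week spleens in this measure did not pass its test with all libraries.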

How the results depend on the processing

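The Sdc1 call with 2DG at 10 weeks held in all 21 alternatives, and that of Slamf7 in 20. Members called (2 for 2DG at 10 weeks, 0 and 0 in the other comparisons) became 1 for a fold change of 1.5 and 4 without replicates 6 and 8 in the first; 1 with DESeq2 and 3 without both in the age comparison; and, for 2DG-treated against 6-week spleens, 2 with DESeq2, 1 with no filter, 3 for the compared groups alone, 2 with voom and 2 without both. Leaving out single libraries gave 2 to 4, 0 to 2 and 0 to 1. All genes called (1376, 1 and 24) became 2304, 682 and 902 with DESeq2, 581, 0 and 1367 for the compared groups alone, 83, 0 and 0 for a fold change of 1.5, 3193, 2303 and 758 without both replicates, 102 and 98 with no filter in the last pair of comparisons, and 1644 with voom in the last. Single libraries left out gave 514 to 2209, 0 to 1563 and 1 to 354. The causes were not tested.

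With lists as summed CPM, Sdc1 (-0.52), Slamf7 (0.61) and Tnfrsf13b (-0.28) no longer passed relative to their lists; with 1 library left out (-0.31 to -0.24, 0.76 to 1.00 and -0.32 to -0.21) too few permutations remain for any p to pass. Tnfrsf13c relative to its list ran from -0.0456 to 0.126. The sign of the Tnfsf13 age value turned with median-of-ratios size factors (0.000269), no filter (0.00874), immunoglobulin genes removed (2.31e-05), voom (0.0803) and single libraries left out (-0.25 to 0.14), and so did Tnfsf13b (-0.0644 to 0.0326) and Tnfsf13 (-0.12 to 0.27) for 2DG-treated over 6-week spleens and Mpo (-1.36 to 0.12) for 2DG at 10 weeks, when single libraries were left out. In every setting and comparison the median log2 fold change of all genes lay within 0.027 of 0. No paired analysis was possible because the groups share no replicate numbers. At 11 to 34 counts per library, Tnfsf13 gives no firm comparison.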
